A study of Mus musculus with 9 samples.

Results

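The cytosolic sulfotransferases described here are 10 genes: Sult1a1, Sult1b1, Sult1c2, Sult1d1, Sult1e1, Sult2a1, Sult2a2, Sult2a8, Sult3a1 and Sult5a1. They were chosen by name and not by a threshold on their values, but with earlier results of these data known. They are 10 of 21 mouse genes of the family that have a row among the 32285 genes measured. All 10 had a mean of at least 10 normalized counts over the 9 libraries, so none was too low to read as a whole. By group, Sult1e1 was under 10 in Control and Tc, and Sult3a1 was under 10 in Dox.

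Cytosolic sulfotransferases move a sulfate group from the donor PAPS (3'-phosphoadenosine 5'-phosphosulfate) to small molecules, which makes them more soluble in water and often inactive. The liver is a main site of this reaction, and each family member prefers certain substrates, such as phenols, estrogens, thyroid hormones, catecholamines, hydroxysteroids and bile acids. Several members differ between male and female mouse liver, where the pattern of growth hormone release sets many sex-dependent genes.

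RNA was sequenced from livers of male Tet-OFF mice in 3 groups of 3 libraries. In these mice a ubiquitous CAG promoter, carried on a piggyBac insertion, drives CreERT2. Tamoxifen then removes a stop cassette before tTA at Rosa26, and tTA drives a Venus and mCherry transgene from tetO sequences at the same locus until an antibiotic of the tetracycline type stops it. All 3 groups received tamoxifen. The Control group received no antibiotic, the Dox group received doxycycline hyclate and the Tc group tetracycline hydrochloride, each at 2 mg/mL in sweetened drinking water for 7 days from 4 weeks of age. Dox and Tc are isomers that carry 1 hydroxyl group on different ring carbons, and were given as different salts. Intake and whether the control water held sucrose are not given in the sources used here. The presence of an antibiotic and the silencing of the transgene cannot be told apart in this design, and in whole liver fewer cells of a type cannot be told apart from less RNA per cell.

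Each library held 7426136 to 12183041 reads on genes. In all 3 groups, library 3 could be written nearly as a mixture of libraries 1 and 2, with fitted weights of 58.2% and 42.2% for Control, 61.3% and 34.6% for Dox and 62.1% and 36.8% for Tc. Library 3 lay between libraries 1 and 2 for 8 of the 10 sulfotransferases in Control, 10 in Dox and 7 in Tc. Over all genes with a mean of at least 10 that differed over 2-fold between libraries 1 and 2, the counts were 537 of 641, 4237 of 4394 and 1023 of 1104. The sulfotransferases were not limited to such genes, so the counts are not of like sets. The study's methods call the libraries of a group biological replicates. Results are given with and without libraries 3, and p-values over all 9 libraries, which treat them as separate livers, are too small if they are not. Hepatocyte markers were high in every library (a sum of 597723 to 1598055 normalized counts over 6 genes) and those of exocrine pancreas were near 0 (7.9 at most). Transcripts of 4 Y-linked genes were present in all 9 libraries, for example Uty at 131 to 228, while Xist was at 44.1 at most.

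The stretch that codes for the PAPS-binding loop is shown for all 10 members, since this loop is what the enzymes share. Each line gives 45 coding bases of the GRCm38 transcripts, with the 21 bases of the loop in capitals.
Sult1a1: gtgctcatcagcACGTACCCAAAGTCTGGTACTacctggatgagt
Sult1b1: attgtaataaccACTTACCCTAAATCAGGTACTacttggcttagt
Sult1c2: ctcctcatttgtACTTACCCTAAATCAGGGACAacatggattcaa
Sult1d1: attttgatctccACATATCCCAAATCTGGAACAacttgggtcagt
Sult1e1: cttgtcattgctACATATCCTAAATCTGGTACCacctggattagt
Sult2a1: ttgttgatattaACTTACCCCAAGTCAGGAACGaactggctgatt
Sult2a2: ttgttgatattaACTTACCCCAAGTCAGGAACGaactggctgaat
Sult2a8: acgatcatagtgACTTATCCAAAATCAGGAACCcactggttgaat
Sult3a1: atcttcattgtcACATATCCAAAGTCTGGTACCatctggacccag
Sult5a1: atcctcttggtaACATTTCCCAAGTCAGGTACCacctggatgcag

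In the loop, 13 of 21 bases were identical in all 10 genes. Sult2a1 and Sult2a2 differed at 1 of the 45 bases, and 570 of the 582 annotated coding bases of Sult2a2 matched Sult2a1 (97.9%). Sult2a8, also of the 2a group, matched Sult2a1 at 71.0% of the shorter coding sequence, and the neighbours Sult1d1 and Sult1e1 matched each other at 64.7%. Of the windows of 86 bases, the read length, that a Sult2a2 transcript can give, 58.7% occurred in no other gene. This share was 85.0% for Sult2a1, 97.4% for Sult1a1, 99.3% for Sult3a1 and 100% for the other 6. Since only uniquely mapped reads were counted, reads of Sult2a1 and Sult2a2 from the shared windows were not counted, and their levels are uncertain in that sense.

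The mix of sulfotransferase transcripts differed from library to library (plot of shares by library). Levels per kilobase were divided by all annotated exon bases of a gene, for example 1507 for Sult1a1 and 3284 for Sult2a8. Shares depend on that choice, and windows shared between genes were not corrected for. Per kilobase of exon, Sult1a1 was the highest member in all 3 Control libraries, at 51.3%, 54.1% and 50.5% of the summed level. Its share was 21.8%, 28.4% and 25.7% with Dox and 30.9%, 24.1% and 29.7% with Tc. The Control shares lay above all 6 shares with an antibiotic. The mean share was 52.0% ± 1.89 (SD, n = 3) in Control, 25.3% ± 3.32 with Dox and 28.2% ± 3.63 with Tc, and 52.7%, 25.1% and 27.5% without libraries 3. These shares were singled out after they were seen. An exact permutation test of them gave two-sided p = 0.1 both for Dox and for Tc against Control. With 3 libraries per group an exact permutation test cannot give a smaller two-sided p, so it cannot decide whether these shares differed. For Dox against Tc the exact permutation test gave p = 0.4. Without libraries 3 the exact permutation test gave p = 0.333 for Dox and for Tc against Control and p = 0.667 for Dox against Tc. A share also depends on the other members: the level of Sult1a1 per kilobase in Dox library 2 was 2759, the highest of the 9 libraries, where its share was 28.4%.

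**Figure D1:**
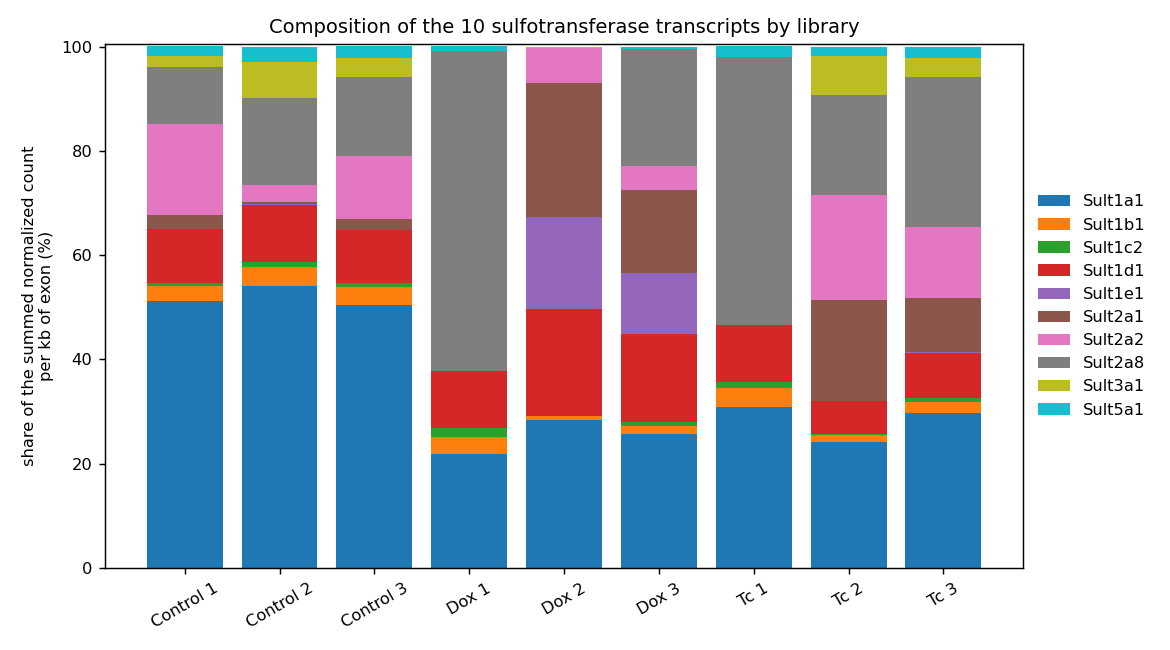
Share (%) of each of the 10 members in their summed normalized count per kilobase of exon, 1 bar per library. Sult2a8 made up 61.4% of Dox library 1 and 51.4% of Tc library 1 but 0.141% of Dox library 2, where Sult2a1 (25.8%), Sult1d1 (20.5%) and Sult1e1 (17.6%) took large shares.

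Dox libraries 1 and 2 were unlike each other in this mix. In Dox library 1, Sult2a8 held 61.4% of the summed level per kilobase, and Sult1e1, Sult2a1, Sult2a2 and Sult3a1 had no read. In Dox library 2, Sult2a8 held 0.141%, while Sult2a1 held 25.8%, Sult1d1 20.5% and Sult1e1 17.6%. Tc library 1 was like Dox library 1 in that Sult2a8 led with 51.4% and Sult1e1 and Sult2a2 had no read. The summed level of the members per kilobase ranged from 2777 in Control library 2 to 9700.4 in Dox library 2.

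Whether the antibiotics changed single members was tested with limma on log2(normalized count + 1), with a gene called at an adjusted p under 0.05 and a fold change over 2 (plot of differences). With all 9 libraries, 1 of the 10 members was called for Dox against Control, Sult5a1, against a background of 5% of the 12100 genes tested. No member was called for Tc against Control (background 0.165%) or for Dox against Tc (background 0.215%). At an unadjusted p under 0.05, limma counted 3 members with Dox, 1 with Tc and 4 when the antibiotics were compared, whatever the fold change. The shares over all genes were 29.1%, 11.7% and 21.7%, so the first and second counts were at the background. The median log2 difference over the 10 members was −0.65 with Dox and −0.45 with Tc, each against Control, and −0.05 for Dox against Tc, beside 0.00, 0.00 and −0.02 over all genes tested. The comparisons with Control share the same Control libraries.

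Without libraries 3, limma called 0 members and 0% of 12096 genes in each of the 3 comparisons, although 1 member (Sult5a1) with Dox and 1 between the antibiotics (Sult5a1) had an unadjusted p under 0.05. DESeq2, run on the whole reads recovered from the normalized counts, called 3 members for Dox (Sult1e1, Sult3a1 and Sult5a1; background 8.81%), 0 for Tc (background 1.46%) and 4 between Dox and Tc (Sult1d1, Sult1e1, Sult3a1 and Sult5a1; background 4.72%). Without libraries 3, DESeq2 called Sult5a1 for Dox (background 0.932%), 0 members for Tc (background 0.0783%) and 0 between Dox and Tc (background 0.253%).

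**Figure D2:**
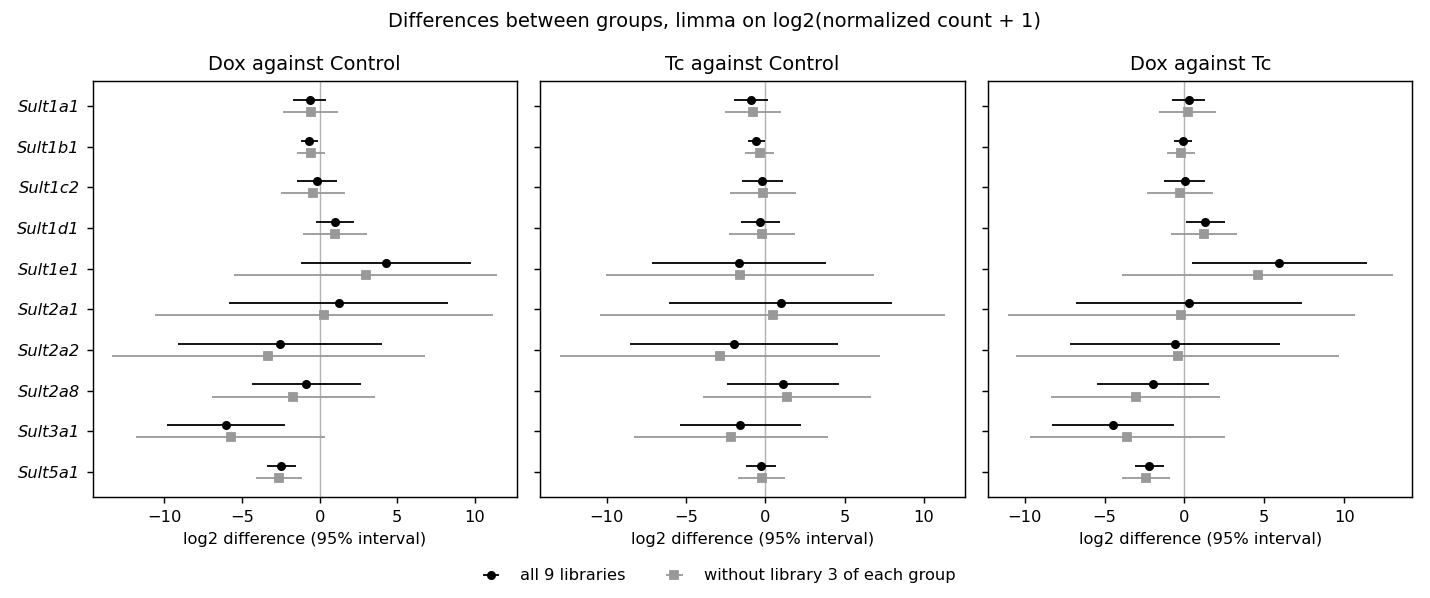
Log2 difference of each member in the 3 comparisons from limma, with its 95% interval, over all 9 libraries (circles) and without library 3 of each group (squares). The interval of Sult5a1 for Dox against Control lay below 0 in both fits, and those of Sult1e1, Sult2a1, Sult2a2 and Sult3a1 were several log2 units wide.

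Leaving out 1 Dox library changed which members were called. Without Dox library 2, limma called Sult1a1, Sult2a8, Sult3a1 and Sult5a1 for Dox against Control (background 9.22%), Sult2a8 for Tc against Control (background 1.86%) and Sult5a1 for Dox against Tc (background 1.49%). Without Dox library 1, it called Sult1d1, Sult1e1 and Sult5a1 both against Control (background 12.5%) and against Tc (background 11.3%). Sult5a1 was the 1 member called for Dox against Control in both of these fits.

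Groups that did not overlap at all were common: 33.3% of genes for Dox against Control, 30.7% for Tc against Control and 24.6% for Dox against Tc. Among the 10 members, 3 lay lower with Dox than in Control in every library (Sult1b1, Sult3a1 and Sult5a1), near the background. With Tc, Sult2a8 lay above and Sult1a1 and Sult1e1 lay below all Control libraries, also near the background. For Sult1e1 this rests on 0, 3 and 1 reads with Tc against 3, 8 and 4 reads in Control, too few to read. Only Sult5a1 of the members did not overlap between Dox and Tc, with Dox the lower.

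**Figure D3:**
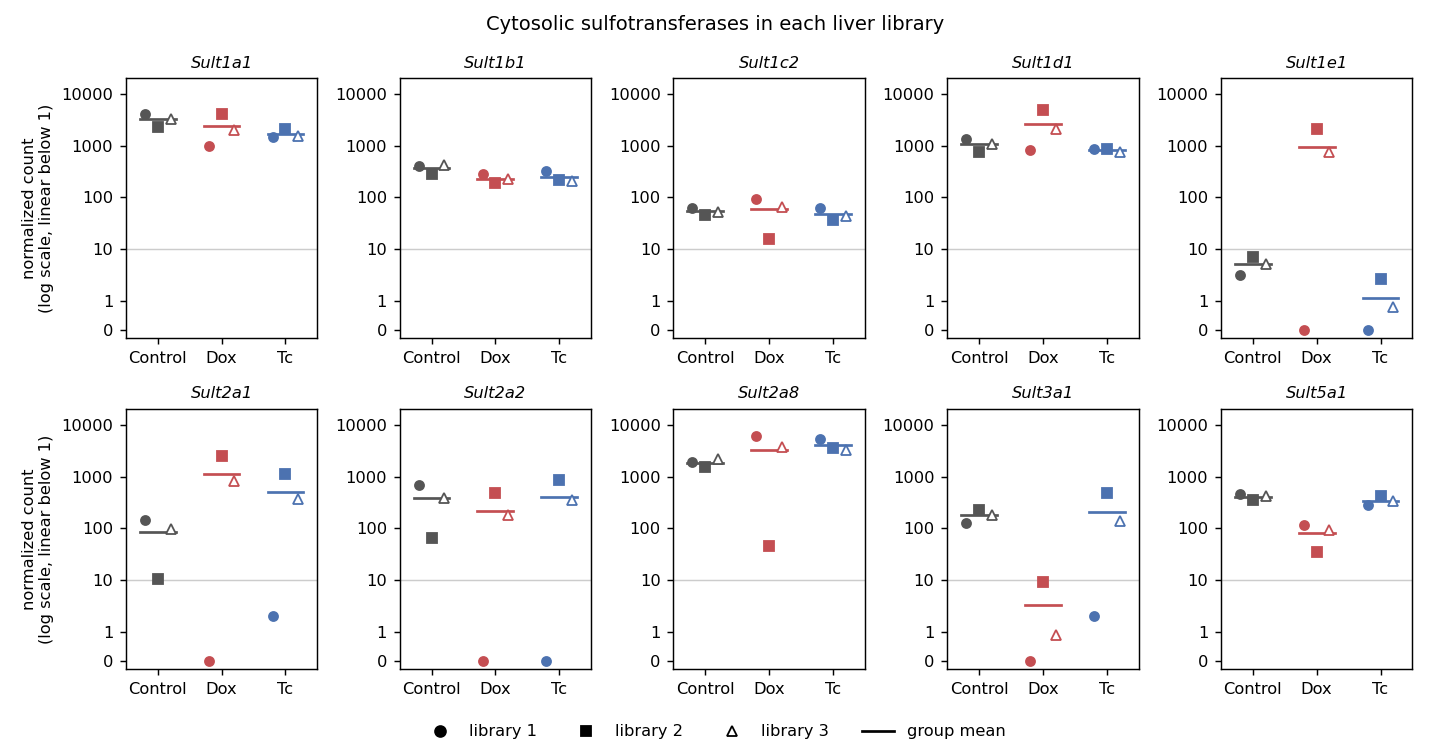
Normalized count of each member in each library (log scale, linear below 1), with library 1 as a circle, library 2 as a square, library 3 as an open triangle and the group mean as a line; the grey line marks 10. Sult5a1 was at 34.5 to 118 with Dox against 351 to 454 in Control, while Sult2a1, Sult2a2 and, with Tc, Sult3a1 ranged from 0 or near 0 to at least 472.8 within a group with an antibiotic.

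Sult1a1 (ENSMUSG00000030711, chr7:126672865-126676432, minus strand), the main phenol sulfotransferase of liver, was at 4113, 2265 and 3321 normalized counts in Control libraries 1 to 3. It was at 1002, 4158 and 1994 with Dox and at 1498, 2075 and 1554 with Tc. All Tc libraries lay below all Control libraries, while Dox library 2 was the highest of the 9. The log2 difference was −0.63 for Dox (SE 0.46, limma adjusted p = 0.389) and −0.89 for Tc (SE 0.46, adjusted p = 0.515), and −0.58 and −0.79 without libraries 3 (adjusted p = 0.767 and 1). Without Dox library 2 the difference for Dox was −1.15 (95% interval −1.87 to −0.43, adjusted p = 0.0362). Sult1a1 shares 61 exon bases with Sgf29 on the other strand, which reached 140.0 normalized counts at most.

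Sult1b1, Sult1d1 and Sult1e1 lie next to each other on the minus strand of chromosome 5. Sult1b1 (ENSMUSG00000029269, chr5:87513339-87538195), which sulfates thyroid hormones, was at 413, 283 and 416 in Control, 279, 189 and 229 with Dox and 331, 215 and 208 with Tc. Every Dox library lay below every Control library, and the lowest Control library lay between the Tc libraries. The log2 difference was −0.67 for Dox (95% interval −1.22 to −0.12, limma adjusted p = 0.116) and −0.57 for Tc (−1.12 to −0.02, adjusted p = 0.418). Without libraries 3 both intervals held 0 (−0.57 for Dox, −0.36 for Tc).

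Sult1d1 (ENSMUSG00000029273, chr5:87554645-87569027) sulfates catecholamines such as dopamine. It was at 1353, 753 and 1092 in Control and 860.3, 881 and 748 with Tc. With Dox it was at 827, 4891 and 2123, so Dox library 1 was within the Control range and Dox libraries 2 and 3 were above all other libraries. The log2 difference was 0.98 for Dox against Control (SE 0.54, limma adjusted p = 0.263) and 1.31 for Dox against Tc (SE 0.54, adjusted p = 0.217). Without libraries 3 these were 0.99 and 1.21 (adjusted p = 0.69 and 0.755). Without Dox library 1 they were 1.64 (adjusted p = 0.018) and 1.96 (adjusted p = 0.0172).

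Sult1e1 (ENSMUSG00000029272, chr5:87575969-87591594), the estrogen sulfotransferase, was at 3.2, 7.1 and 5.1 in Control and 0, 2.7 and 0.8 with Tc. With Dox it was at 0, 2115 and 753, that is 0, 1839 and 856 reads. Dox libraries 2 and 3 thus stood far above the other 7 libraries, of which none had over 8 reads, and a count of 0 in Dox library 1 allows up to 3.16 normalized counts (3 reads). The log2 difference was 4.31 for Dox against Control (95% interval −1.17 to 9.79, limma adjusted p = 0.268) and 2.99 without libraries 3 (−5.49 to 11.5). DESeq2 gave 7.54 over 9 libraries (adjusted p = 0.00314) and 7.69 without libraries 3 (adjusted p = 0.463). Without Dox library 1, limma gave 7.74 against Control (adjusted p = 0.00202) and 9.38 against Tc (adjusted p = 0.00214).

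Sult1c2 (ENSMUSG00000023122, chr17:53829637-53846339, minus strand) was the lowest member in Control after Sult1e1 on the per-kilobase scale, at a mean of 29.3, beside 2145 for Sult1a1. Its normalized counts were 63.5, 45.1 and 53.4 in Control, 94.8, 16.1 and 66.9 with Dox and 62.5, 36.9 and 44.6 with Tc. The 3 groups overlapped, and Dox library 2 was the lowest. The log2 difference was −0.18 for Dox (95% interval −1.47 to 1.10, limma adjusted p = 0.854) and −0.19 for Tc (−1.47 to 1.10, adjusted p = 0.941). Without libraries 3 the values were −0.43 and −0.15.

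Sult2a1 (ENSMUSG00000078798, chr7:13796246-13837409, minus strand) and Sult2a2 (ENSMUSG00000070811, chr7:13733505-13779636, plus strand), which sulfate hydroxysteroids and bile acids, varied widely within groups. Sult2a1 was at 146, 10.6 and 95.4 in Control, 0, 2555 and 837 with Dox and 2.0, 1120.5 and 368 with Tc. Sult2a2 was at 681, 66.4 and 386 in Control, 0, 473 and 179 with Dox and 0, 861 and 349 with Tc. Both had at most 2 reads in Dox library 1 and Tc library 1 and were far higher in library 2 of the same groups, while in Control library 2 was the lowest. The log2 difference of Sult2a1 was 1.23 for Dox (95% interval −5.82 to 8.29, limma adjusted p = 0.816) and 0.96 for Tc (−6.09 to 8.02, adjusted p = 0.945). That of Sult2a2 was −2.57 for Dox (−9.14 to 4.0, adjusted p = 0.581) and −1.96 for Tc (−8.53 to 4.61, adjusted p = 0.852). Intervals of this width hold no difference as well as large differences in either direction. Without libraries 3 the differences were 0.29 and 0.48 for Sult2a1 and −3.30 and −2.87 for Sult2a2.

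The close relatives of these genes in the same stretch of chromosome 7 had lows and highs in the same libraries. Sult2a5 was at 61.4, 11.5 and 35.6 in Control, 1.1, 140.3 and 60.7 with Dox and 0, 110 and 41.3 with Tc. Sult2a6 was at 67.7, 14.2 and 42.0 in Control, 0, 136 and 64.2 with Dox and 0, 78.2 and 30.3 with Tc. Sult2a4 was lower, at most 58.7, and had no read in Control library 2, Dox library 1 and Tc library 1. These genes share windows of reads with Sult2a1 or Sult2a2, except Sult2a6, all of whose windows were its own. None of Sult2a4, Sult2a5 and Sult2a6 was called in any comparison with all 9 libraries.

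RefSeq promoter sequences (GRCm38.p6) were matched for 17 of the 21 family genes and 8 of the 10 members, without Sult2a1 and Sult2a2. The upstream sequences of Sult2a3, Sult2a4, Sult2a5 and Sult2a6 held a common run of 15 bases, shown in capitals with its surroundings because Sult2a4, Sult2a5 and Sult2a6 had lows and highs in the same libraries. The run begins 51, 107, 28 and 71 bases before the annotated start.
Sult2a3: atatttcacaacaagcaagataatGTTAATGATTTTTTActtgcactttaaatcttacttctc
Sult2a4: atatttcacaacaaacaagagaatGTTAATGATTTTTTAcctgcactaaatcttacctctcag
Sult2a5: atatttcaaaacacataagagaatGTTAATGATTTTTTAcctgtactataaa
Sult2a6: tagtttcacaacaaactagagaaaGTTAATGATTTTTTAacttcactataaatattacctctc

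These lines are chr7:14123061-14123123, chr7:13989657-13989719 and chr7:14254903-14254965 on the minus strand for Sult2a3, Sult2a4 and Sult2a6, and chr7:13623915-13623966 on the plus strand for Sult2a5. On either strand, the run occurred in 4 of 32851 upstream sequences of 250 bases (0.0122%), those of these 4 genes, and in neither of the entries for Sult2a8. It was taken as the longest run shared by these 4 sequences, so its presence in all 4 was set by that choice. Pairs of the 4 sequences matched at 62.8% to 80.0% of the 250 bases. The run begins with the letters GTTAAT of the half-site of the liver factor HNF1, which were found on either strand in 6.43% of all upstream sequences. In the family these letters also occurred upstream of Sult1a1, Sult1d1 and Sult3a2. A match of letters is a description of the sequence and not of a bound site.

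Sult2a8 (ENSMUSG00000030378, chr7:14410686-14446769, minus strand), a bile acid sulfotransferase found mainly in male mouse liver, went the other way within the Dox group. It was at 1915, 1516 and 2172 in Control, 6155, 44.9 and 3779 with Dox and 5427, 3610.5 and 3292 with Tc. Every Tc library and Dox libraries 1 and 3 lay above every Control library, and Dox library 2 lay far below all others. The log2 difference for Tc was 1.12 (95% interval −2.40 to 4.63, limma adjusted p = 0.845) and −0.86 for Dox (−4.37 to 2.66, adjusted p = 0.738). In a fit without Dox library 2, whose spread enters the pooled error of all groups, the difference for Tc was unchanged in size, with adjusted p = 0.0363. That for Dox was then 1.38 (95% interval 0.78 to 1.99, adjusted p = 0.011). Without libraries 3 the differences were 1.38 for Tc (adjusted p = 1) and −1.68 for Dox (adjusted p = 0.772).

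Sult3a1 (ENSMUSG00000069668, chr10:33857721-33879532, plus strand), an amine sulfotransferase, was at 127, 226 and 184 in Control. With Dox it was at 0, 9.2 and 0.9, that is 0, 8 and 1 reads, and with Tc at 2.0, 488 and 142. All Dox libraries were below all Control libraries, while Tc library 1 was at the Dox level and Tc library 2 was the highest of all. The log2 difference for Dox was −6.03 (95% interval −9.85 to −2.22) and missed the threshold with limma (adjusted p = 0.0594), as it did without libraries 3 (−5.74, adjusted p = 0.573). DESeq2 called it over 9 libraries (−5.75, adjusted p = 0.00825) and not without libraries 3 (−5.26, adjusted p = 0.51). Limma called it without Dox library 2 (−7.00, adjusted p = 0.0225), without Tc library 1 (−6.03, adjusted p = 0.0111) and without Tc library 2 (−6.03, adjusted p = 0.0469). Its neighbour Sult3a2, which matches it at 90.9% of coding bases, was at 8.5, 16.8 and 12.7 in Control, 0, 1.2 and 0 with Dox and 0, 99.8 and 30.3 with Tc. Sult3a2 was not called for Dox (−3.36, limma adjusted p = 0.165).

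Sult5a1 (ENSMUSG00000000739, chr8:123140192-123158315, minus strand), whose substrates are little known, was at 454, 351 and 429 in Control and 278, 421 and 331 with Tc. With Dox it was at 118, 34.5 and 95. All Dox libraries lay below all 6 others, and the Control and Tc libraries overlapped. The group means were 411 ± 53.6 (SD, n = 3) in Control, 82.5 ± 43.1 with Dox and 343 ± 72.1 with Tc. With Dox against Control, Sult5a1 fell by 2.47 on the log2 scale (SE 0.40, 95% interval −3.39 to −1.55, limma adjusted p = 0.0144). The difference between Dox and Tc was −2.20 (SE 0.40, adjusted p = 0.0746) and that between Tc and Control −0.27 (95% interval −1.19 to 0.65, adjusted p = 0.853).

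The size of the Sult5a1 difference for Dox changed little. With limma its call was lost on leaving out any 1 Control library or Dox library 3. It was also lost without all libraries 3, where limma called 0 of 12096 genes, while DESeq2 kept the call there. Without libraries 3 the difference was −2.62 (limma adjusted p = 0.558) and, with DESeq2, −2.40 (adjusted p = 0.0224). Without Control library 1, 2 or 3 the limma adjusted p was 0.0519, 0.0542 and 0.0708, and without Dox library 3 it was 0.0544. Against Tc, DESeq2 called Sult5a1 with all 9 libraries (−2.05, adjusted p = 3.31e-05) but not without libraries 3 (−2.19, adjusted p = 0.11), and limma called it without Dox library 1 (−2.54, adjusted p = 0.0121) or 2 (−1.67, adjusted p = 0.00643).

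Dox and Tc were given at the same concentration for the same time, and 10 members were compared between them. The 95% interval of the log2 difference, Dox against Tc, held 0 for Sult1a1 (−0.79 to 1.31), Sult1b1 (−0.65 to 0.45) and Sult1c2 (−1.28 to 1.29). For Sult1d1 it was 0.07 to 2.54, for Sult1e1 0.46 to 11.4 and for Sult3a1 −8.28 to −0.65, with limma adjusted p = 0.217, 0.209 and 0.186. For Sult2a1 (−6.79 to 7.32), Sult2a2 (−7.18 to 5.96) and Sult2a8 (−5.49 to 1.54) the intervals were too wide to tell a like response from an opposite one. Sult5a1 alone had an interval wholly beyond a 2-fold difference (−3.12 to −1.28), and it narrowly missed the adjusted threshold.

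Genes that differ between male and female mouse liver were low or high in some of the libraries where members were, but not in all (plot beside sex-biased genes). The sum over 17 female-biased genes was 28561, 14788 and 23794 normalized counts in Control, 4085, 9931 and 5859 with Dox and 5119, 19675 and 9407 with Tc. With all 9 libraries, limma called 6 of the 17 lower with Dox against Control (background 5%) and 0 higher, among them Cyp3a41a (−9.33), Cyp3a44 (−8.80), A1bg (−7.61) and Cyp2c69 (−4.80). With Tc 0 of 17 were called against Control, and 1 was called lower with Dox than with Tc, Cyp2c40 (−2.24, adjusted p = 0.0498). Without libraries 3, limma called 0 with Dox, and DESeq2 called 6 lower.

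The sum over 17 male-biased genes was 5106, 10348 and 8265 in Control, 83667, 4423 and 53126 with Dox and 42252, 7121 and 26462 with Tc. Within their groups these sums were highest in Dox library 1 and Tc library 1, where Sult2a8 was highest and Sult2a1, Sult2a2 and Sult3a1 were at 2.0 or less. Dox library 2 had the lowest sum of male-biased genes and the lowest Sult2a8. In Control, Sult2a1 and Sult2a2 were lowest in library 2 like the female-biased sum. Sult2a8 and Sult3a1 went the opposite way there: Sult2a8 was lowest (1516) in library 2, where the male-biased sum was highest, and Sult3a1 was highest (226) there, where the female-biased sum was lowest. With Tc, Sult2a8 was lowest in library 3 (3292) and the male-biased sum in library 2. Of the 16 male-biased genes tested, 1 was called with Dox, Bcl6 (2.62), a repressor of female-biased genes. Xist was highest in Tc library 2 (44.1) and library 3 (23.6) and Y-linked transcripts were present in both. The part of sex-biased expression in the sulfotransferase values was not tested.

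**Figure D4:**
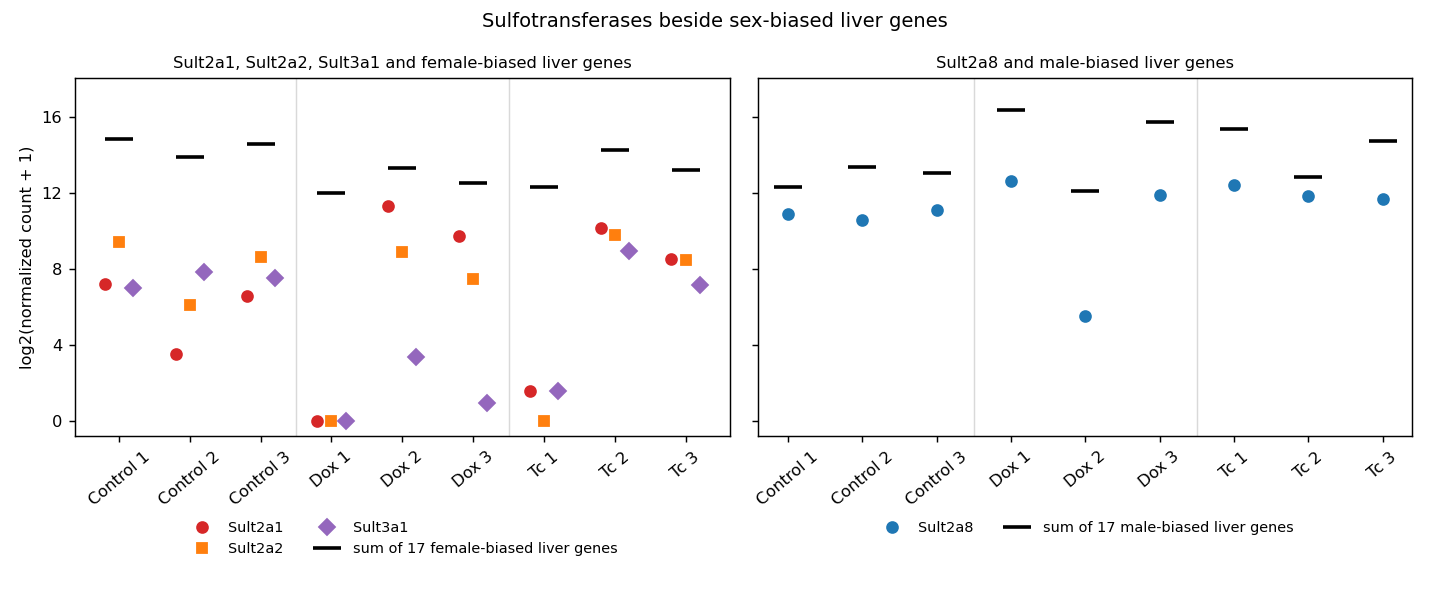
Log2(normalized count + 1) by library of Sult2a1, Sult2a2 and Sult3a1 with the sum of 17 female-biased liver genes (left), and of Sult2a8 with the sum of 17 male-biased liver genes (right). Dox library 1 and Tc library 1 had the lowest female-biased sums of their groups, 4085 and 5119, and at most 2.0 normalized counts of Sult2a1, Sult2a2 and Sult3a1.

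The supply of PAPS was described by 6 genes, of which 0 were called in any comparison with all 9 libraries (plot of PAPS supply genes). Papss2, which makes PAPS in liver, was at 3641, 1799 and 2971 in Control, 1689, 2484 and 1907 with Dox and 3063, 3139 and 2807 with Tc, so Control overlapped both other groups. Papss1, its paralog, was at 117, 49.5 and 104 with Dox against 122 to 155 in Control and 136 to 185 with Tc, so Dox was the lowest group. The log2 difference for Dox was −0.43 for Papss2 (limma adjusted p = 0.304) and −0.65 for Papss1 (adjusted p = 0.197), and −0.32 and −0.86 without libraries 3.

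Slc35b2, which carries PAPS into the Golgi, was at 591, 461 and 587 in Control, 368, 322 and 351 with Dox and 463, 429.8 and 462 with Tc. Its log2 difference for Dox was −0.65 (95% interval −0.95 to −0.35, limma adjusted p = 0.025), under the 2-fold limit for a call, and −0.60 without libraries 3 (adjusted p = 0.573). Impad1, a phosphatase that clears the spent donor in the Golgi, was at 677 to 724 in Control, 863 to 1122 with Dox and 662 to 747 with Tc, with a difference of 0.43 for Dox (adjusted p = 0.0781). Bpnt1, the phosphatase of the cytosol, and Slc35b3, another Golgi carrier, had differences of −0.21 (adjusted p = 0.603) and 0.15 (adjusted p = 0.684).

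**Figure D5:**
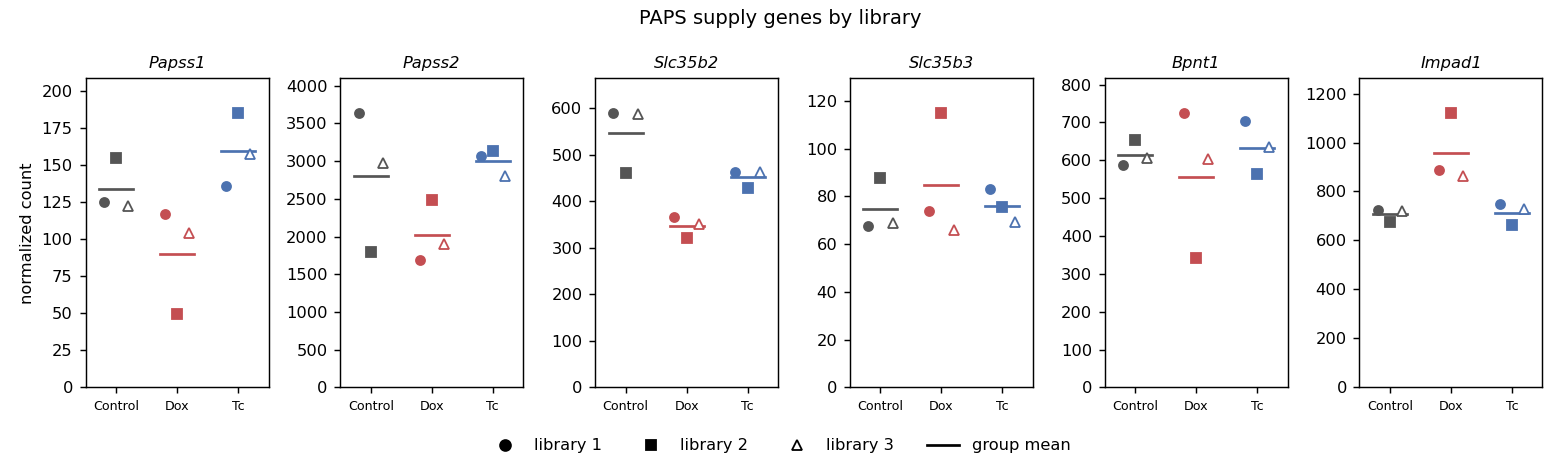
Normalized count of the 6 PAPS supply genes in each library, with library 1 as a circle, library 2 as a square, library 3 as an open triangle and the group mean as a line, each panel starting at 0. Slc35b2 was at 322 to 368 with Dox, below 461 to 591 in Control, and Papss2 in Control overlapped both other groups.

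Other parts of sulfate biology were not called either. With all 9 libraries, limma called 0 of 13 genes of inorganic sulfate supply, 0 of 6 sulfatases, 0 of 11 Golgi sulfotransferases and 0 of 17 regulators of sulfotransferase genes in any of the 3 comparisons. At an unadjusted limma p under 0.05 the numbers for Dox against Control were 4, 1, 2 and 4, near or below the 29.1% over all genes. The median log2 differences for Dox against Control were −0.24, −0.32, −0.13 and 0.23. For Tc against Control the numbers were 2, 1, 1 and 5, beside 11.7% of all genes. For Dox against Tc they were 7, 0, 2 and 6, beside 21.7%. The 5 of 17 regulators with Tc and the 7 of 13 sulfate supply genes between the antibiotics thus lay above the background. DESeq2 without libraries 3 called 0 of each list for Dox against Control.

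Among the regulators, Ghr, the growth hormone receptor, was at 3378 to 4106 in Control, 7254, 472 and 4625 with Dox and 6452, 4159 and 4799 with Tc, an order of libraries close to that of Sult2a8. Of 7 target genes of the receptors PXR and CAR, limma called 1 with Dox, Cyp2c55 (4.45, adjusted p = 0.0499), at 245, 17.3 and 145 with Dox against 1.8 to 6.4 in Control. Without libraries 3, limma called no gene at all and DESeq2 called Cyp2c55 (6.08, adjusted p = 0.011). It was at 85.0, 5.4 and 43.8 with Tc and was not called there. The 7 targets differed in which Dox library was highest. Cyp2c55, Ces2a, Cyp2c29 and Cyp3a11 were highest in Dox library 1, and Cyp2b10, Slco1a4 and Abcc3 in Dox library 2. Cyp2b10 was at 22.1, 7464 and 2572.5 with Dox against 149 to 220 in Control. These lists were chosen with earlier results of these data known.

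Markers of other cells and states moved with the groups as well. Of 12 acute-phase genes, 9 were called lower with Dox by limma over 9 libraries, the largest being Saa2 (−8.40), Saa1 (−7.24), Apcs (−3.21) and Orm2 (−3.18), with summed levels of 83031 to 128519 against 388006 to 398753 in Control, and with Tc their sums were 164361, 530970.2 and 302256. Of 5 Kupffer cell markers, 2 were called lower with Dox (Clec4f, −1.85, and Adgre1, −1.77), with sums of 1571 to 3769.5 against 5695 to 9403 in Control and 2678 to 5476 with Tc. Of 5 sinusoidal endothelial markers 1 was called lower (Stab2, −1.22), and of 5 erythroid markers 2 (Hba-a1, −1.80, and Hba-a2, −1.90). Of 5 biliary markers 1 was called higher (Sox9, 1.38), while 0 of the hepatocyte, stellate cell, neutrophil, intestinal and skeletal muscle markers were called with Dox. For no list was any gene called with Tc against Control with all 9 libraries. Without libraries 3, where limma called 0 of all 12096 genes, DESeq2 called 4 acute-phase genes, 1 Kupffer cell marker and 1 sinusoidal endothelial marker lower with Dox. Sult5a1 was lowest in the same 3 libraries as the acute-phase sum, and the part of these genes in the Sult5a1 difference was not tested.

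The genes whose pattern over the 9 libraries was most like each member were found by Pearson correlation of log2(normalized count + 1) among 12099 genes, as a description. The 9 points share libraries 3 that mostly lie between libraries 1 and 2. Sult5a1 was most like Ank (0.992), Cfb (0.989) and Ugt2b37 (0.989), and Sult3a1 like Lcn2 (0.989), an acute-phase gene, Ssbp4 (0.982) and Ppp1r16b (0.98). Sult1e1 was most like Pdk4 (0.994), a kinase gene known to rise in fasting, Txnip (0.989) and Cacna1b (0.987), and Sult1d1 like Dcaf6 (0.992), Fam53b (0.991) and Ets2 (0.99). Sult2a8 was most like Fabp1 (0.997), the liver fatty acid carrier, Slc22a30 (0.993) and Ghr (0.993). Sult2a1 was most like Sult2a5 (0.947), Sh3d21 (0.946) and Sult2a4 (0.939), and Sult2a2 like Sult2a6 (0.973), Tnfrsf23 (0.967) and Sult2a5 (0.964), so that both had members of their own cluster among the nearest. Sult1a1 was most like Bin3 (0.979), Nid1 (0.977) and Car2 (0.965), Sult1b1 like Naaladl2 (0.941), Ccnh (0.935) and Camk2b (0.932), and Sult1c2 like Prkd3 (0.984), Gm15343 (0.981) and Sec23b (0.977).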

How the data were processed

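RNA of mouse liver was sequenced in 9 libraries with a strand-marking kit as single reads of 86 bases. The authors trimmed the reads with cutadapt, mapped them to mm10 with STAR 2.7.11ac, counted uniquely mapped reads per gene with HTSeq 2.0.5 and divided the counts by a size factor per library with DESeq2 1.42.0. The strand setting of the counting is not given in the sources used here. The deposited values are therefore a signal in normalized counts, and 32158 of 32285 identifiers matched a symbol. Every value was a whole multiple of its library's step (100% of values, tolerance 0.001), which gave the reads back.

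Values plus 1 were put on the log2 scale and tested with limma 3.58.1 (R 4.3.3, with a trend) in 1 model of all 9 libraries, keeping the 12100 genes whose mean was 10 or more, with Benjamini-Hochberg adjustment. DESeq2 1.42.0 and edgeR 4.0.16 on recovered reads, leaving out libraries, pseudocounts, filters, scaling, weights and a replicate block were alternatives. The tests were run on simulated data with large changes, the same spread for every gene and independent libraries. That check does not cover wide spreads within a group or libraries 3 that resemble mixtures. The study's methods call the libraries of a group biological replicates. The labels do not say whether they are separate mice, and libraries 3 resemble mixtures, so p-values measure the spread between libraries, and intervals from 3 reads cover counting error only. Deviations from the group means were correlated between Dox and Tc libraries of the same number (r of 0.287, 0.321 and 0.182), while Control libraries did not pair with either (−0.081 to 0.055). Positions, exons and coding sequences are of GRCm38 (GENCODE). Genes named are the 10 members, list genes called in a comparison (up to 4 per list), PAPS supply genes, sex chromosome transcripts, relatives whose mean was 10 or more and the 3 genes of nearest pattern per member. Ghr, as a regulator, Sgf29 and the PXR and CAR targets that were not called were named after their values were seen. Members and gene lists were chosen with earlier results of these data known.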

Additional observations from a re-analysis of the deposited data

How the results depend on the processing

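Of the alternative counts of called sulfotransferases, 47 stayed within 1.5 times the first count and 28 moved. For Dox against Control (1 called), DESeq2 gave 3, a fit of only the 2 groups 2 (2.81% of all genes), array weights 4 (12.9%), unadjusted p-values under the same fold limit 2 (10.3%), and the fit without libraries 3 gave 0. For Tc against Control (0 called), a fit of the 2 groups gave 1 (2.33%) and array weights 1 (6.09%). For Dox against Tc (0 called), DESeq2 gave 4, array weights 4 (8.85%) and unadjusted p-values 4 (6.52%). Leaving out libraries gave 0 to 4, 0 to 1 and 0 to 3. Without Dox library 2 the counts of 4 for Dox and 1 for Tc stood beside 9.22% and 1.86% of all genes. Without Dox library 1 the count of 3 for Dox against Tc stood beside 11.3%. The replicate block pairs libraries of 1 number across all 3 groups, although Control libraries did not pair with Dox or Tc (r of −0.081 to 0.055). With this block, Sult3a1 was also called with Dox (−6.03, limma adjusted p = 0.0346), which made 2 (4.6% of all genes). The block changed no other call in the model of all 9 libraries. Fitting 2 groups alone with the block, a setting chosen after seeing the data, gave 0 with Dox (0.0413%) and 1 with Tc (2.84%). Leaving out Dox libraries 2 and 3 together, also chosen then, gave 3, 1 and 1 (9.43%, 2.34% and 0.845%). It leaves 1 Dox library, assumed to vary like the other groups.

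Of the alternative log2 differences, 589 kept direction and side of the threshold, 33 passed it, 6 lost it and 54 turned. Sult5a1 with Dox was lower in every setting. For Dox against Control, Sult1c2 turned to 0.14 with DESeq2, 0.13 with edgeR, 0.3 with array weights and 0.03 with DESeq2 without libraries 3. Sult2a8 turned to 0.83, 0.81, 0.93 and 0.85 in the same settings. For Tc against Control, Sult2a2 turned to 0.09, 0.1 and 0.2 and Sult3a1 to 0.23, 0.23 and 0.48 with DESeq2, edgeR and DESeq2 without libraries 3. For Dox against Tc, array weights turned Sult1b1 to 0.03, Sult2a2 to 0.11 and Sult2a8 to 0.08, and the same total per library turned Sult1b1 to 0.08. A pseudocount of 0.1 gave 0 for Sult1c2 and −0.66 for Sult2a1, and the fit without libraries 3 gave −0.28 and −0.19.

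Leaving out libraries turned the following. For Dox against Control, Sult1c2 ranged from −0.68 to 0.81, Sult1d1 from −0.33 to 1.64, Sult2a1 from −5.78 to 4.74, Sult2a2 from −8.03 to 0.16 and Sult2a8 from −2.15 to 1.74. For Tc against Control, Sult2a1 ranged from −0.73 to 3.55, Sult2a2 from −3.8 to 1.07 and Sult3a1 from −3.09 to 0.59. For Dox against Tc, Sult1a1 ranged from −0.75 to 0.77, Sult1b1 from −0.24 to 0.18, Sult1c2 from −0.49 to 1.0, Sult1d1 from 0 to 1.96, Sult2a1 from −6.74 to 3.77, Sult2a2 from −6.07 to 2.12 and Sult2a8 from −3.27 to 0.62. The cause of these turns was not tested. With 3 libraries per group, of which library 3 may not be a separate liver, differences of a few fold in Sult2a1, Sult2a2 and Sult2a8 cannot be read.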
